A study of Mus musculus with 9 samples.

Results

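The genes described here encode proteins of the thin and thick filaments of the sarcomere, the repeating contractile unit of heart muscle. They were a fixed list of 10 of the 23747 genes in each table: the actins Actc1 and Acta1, the troponin subunits Tnnt2, Tnni3 and Tnnc1, the tropomyosin gene Tpm1, the titin gene Ttn, the thick filament genes Myl2 and Mybpc3, and the Z-disc gene Actn2. All 10 were measured in the 9 samples. They were followed by cell type, by group and by mouse in single-nucleus RNA sequencing (sNuc-seq) of the mouse heart, in which each nucleus carries a droplet barcode and each captured transcript a unique molecular identifier (UMI).

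In the sarcomere, myosin heads on the thick filament pull on actin in the thin filament. Troponin and tropomyosin lie along actin and uncover its myosin-binding sites when calcium binds troponin C. Titin spans from the Z-disc, where alpha-actinin anchors the actin filaments, towards the middle of the thick filament, and cardiac myosin-binding protein C and the regulatory light chain tune the action of the myosin heads.

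Per the labels and the study's methods, C57BL/6 mice aged 8 weeks were placed in 3 groups of 3 mice, with 1 library per mouse. Sham mice were gavaged with vehicle for 7 days before surgery in which the left anterior descending coronary artery was not tied. In the I/R group, vehicle was likewise given for 7 days, and the artery was then tied for 30 min and reperfused for 24 h. The SBP group was given the traditional Chinese medicine Shexiang Baoxin Pill (MUSKARDIA in the labels) over the 7 days ahead of the same tie and release. All mice had the chest opened, and the tissue was taken from below the level of the tie, so the libraries describe that region of the heart and not the whole organ. No group combined the pill with the sham operation.

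The libraries held 4576 to 6418 nuclei and 10329520 to 18205985 UMIs, with 1540 to 2031 UMIs in the median nucleus. Any 2 libraries shared 4 to 14 barcodes (0.0781% to 0.251%). Cell types were rebuilt from marker genes with the 10 genes left out, and the names stand for nuclei that resemble a type. Nuclei named cardiomyocytes numbered 10534, and all 7 cardiomyocyte markers were found in over 10% of the nuclei of their cluster. The summed level of these markers was 30500 to 54800 CPM (UMIs of a gene scaled to 1000000 UMIs of the type) in cardiomyocytes, against at most 8310 CPM in myeloid cells, 8230 CPM in endothelial cells and 6660 CPM in fibroblasts. By group it was 44900 to 54800 CPM in sham cardiomyocytes, 30500 to 53200 CPM in I/R and 35700 to 43300 CPM in SBP. SBP thus lay below sham without overlap. The clustering was made without correction for batch, and within cardiomyocytes the libraries stood apart from each other. Of the 8 cardiomyocyte sub-clusters, the 6 largest each drew 79.0% to 98.6% of their nuclei from 2 libraries, and 3 of these drew 96.2% to 97.5% from sham 2, I/R 3 or I/R 1 alone. Markers of other cell types in cardiomyocytes also differed between groups for some lists and overlapped for others. The summed myeloid markers were 83.1 to 118 CPM in sham, 147 to 296 CPM in I/R and 105 to 146 CPM in SBP, and the summed fibroblast markers 258 to 283, 384 to 467 and 332 to 380 CPM. Smooth muscle and pericyte markers were at 413 to 492, 248 to 421 and 279 to 428 CPM, and B cell markers at 8.27 to 18.5, 1.62 to 7.45 and 2.47 to 4.49 CPM. Schwann markers were at 32.2 to 42.1, 22.2 to 39.5 and 25.4 to 30.7 CPM, T cell markers at 6.83 to 7.72, 2.22 to 7.3 and 1.71 to 4.78 CPM, and endothelial markers at 111 to 176, 80.4 to 139 and 85.9 to 169 CPM. Genes of proliferation were at 0.788 to 2.01, 3.86 to 11.0 and 2.03 to 3.03 CPM. The part of these differences in the results was not tested. In sham the smooth muscle and pericyte list summed higher in cardiomyocytes than in fibroblasts (341 to 407 CPM), endothelial cells (209 to 256 CPM) and myeloid cells (157 to 192 CPM).

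The 10 genes lay on 8 chromosomes of the GRCm38 build, in the GENCODE M21 annotation. Ttn was by far the longest, with 279 kb on the minus strand of chromosome 2 (chr2:76703980-76982547) and 347 exons in its longest coding transcript. The others spanned from 2.98 kb for Acta1 (chr8:123891769-123894751) to 71.3 kb for Actn2 (chr13:12269426-12340760), and Actc1 spanned 6.27 kb (chr2:114047282-114053548). An antisense gene, Gm13938, overlapped 63933 bases of Ttn, and Dnaaf3 overlapped 1297 bases of Tnni3 on the same strand. Nisch overlapped Tnnc1 and Ccdc63 overlapped Myl2 on the opposite strand. How reads in such overlaps were assigned is not given in the sources used here, so the values of these 4 genes carry that uncertainty. A530058N18Rik and Gm20388 overlapped the whole of Actc1 (6267 bases) and Acta1 (2983 bases) on the opposite strand. Neither of these overlapping genes was among the genes measured. The study's methods name the library kit and CellRanger, but do not state whether reads of the opposite strand were counted. Whether reads from these genes entered the values of the actins was not tested. The coding sequences of Actc1 and Acta1 were 86.2% identical and the stretches after the stop codon 44.2%, so reads in the coding part could be shared between the pair.

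The 250 bases before the RefSeq start are shown for the 2 actin genes, which had the largest differences between SBP and I/R in cardiomyocytes, and for Ttn, which gave most of the UMIs. The sequences are from RefSeq on GRCm38.p6 and run 5′ to 3′ on the minus strand. Capitals mark the letters of a CArG box (the serum response factor motif), a MEF2 site, CATTCC (the MCAT motif) or TATAAA, each searched on both strands. The Actc1 sequence is chr2:114052876-114053125, the Acta1 sequence chr8:123894776-123895025 and the Ttn sequence chr2:76982548-76982797. The Actc1 sequence lies within the Actc1 gene of GENCODE, which reaches to chr2:114053548.
Actc1: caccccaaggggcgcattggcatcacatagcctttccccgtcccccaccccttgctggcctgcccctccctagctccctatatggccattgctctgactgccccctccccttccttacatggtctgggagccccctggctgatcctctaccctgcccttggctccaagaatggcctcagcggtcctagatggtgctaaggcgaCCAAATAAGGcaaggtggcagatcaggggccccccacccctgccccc
Acta1: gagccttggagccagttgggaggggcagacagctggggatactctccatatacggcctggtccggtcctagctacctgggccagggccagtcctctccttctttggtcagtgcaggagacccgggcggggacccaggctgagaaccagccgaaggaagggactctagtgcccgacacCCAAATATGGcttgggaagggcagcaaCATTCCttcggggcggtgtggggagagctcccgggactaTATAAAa
Ttn: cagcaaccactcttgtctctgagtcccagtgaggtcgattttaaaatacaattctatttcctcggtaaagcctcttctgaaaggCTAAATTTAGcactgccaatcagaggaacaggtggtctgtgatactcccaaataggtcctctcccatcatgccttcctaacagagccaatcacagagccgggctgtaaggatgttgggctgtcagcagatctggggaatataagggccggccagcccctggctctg

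In windows of 300 bases, 250 before and 50 after the start, the 10 genes had 12 promoter entries among 32851 in all. A CArG box was found for Acta1 (bases −73 to −64, CCAAATATGG) and Actc1 (bases −47 to −38, CCAAATAAGG) and for none of the other 10 entries, against 1.63% of all promoters. Each of the 2 matches holds the motif on both strands. A MEF2 site was found for Ttn (bases −166 to −157, CTAAATTTAG) and Mybpc3 (bases −90 to −81, CTATATTTAG), against 3.19% of all promoters. CATTCC was found in 5 entries, those of Acta1, Ttn, Tnnt2, Tnnc1 and Tpm1, against 14.7%, and TATAAA in 3, those of Acta1, Actc1 and Myl2, against 13.6%. The 2 Myl2 entries (chr5:122092474-122092773 and chr5:122092939-122093238) end before the Myl2 gene of GENCODE, which starts at chr5:122100951. The bases next to that GENCODE start were thus not searched. The windows of Actc1 (chr2:114052826-114053125) and Tnni3 (chr7:4522479-4522778) lie within their GENCODE genes. Those genes start on the minus strand at chr2:114053548 and chr7:4524229, and the bases next to these starts were not searched either. The second Tnnt2 entry (chr1:135836739-135837038) also lies within its gene. The CATTCC of Ttn and the TATAAA of Actc1 lay after the start (bases 12 to 17 and 34 to 39), outside the sequences shown. No listed motif overlapped another in those sequences. Such matches describe letters in a window and were not tied to any measured binding.

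Cardiomyocytes held most of the UMIs summed over the 10 genes, but not of each gene. They made up 24.1% to 29.1% of the nuclei in sham, 16.8% to 22.0% in I/R and 18.6% to 19.4% in SBP, and held 78.5% to 89.4% of the UMIs of the 10 genes. For Ttn alone the share was 88.6% to 94.7%. For Actc1 it was 48.2%, 44.6% and 42.9% in sham 1, sham 2 and I/R 1 and 52.3% to 82.4% in the other mice, and for Acta1 it was 31.0%, 30.2% and 37.0% in sham 2, sham 3 and I/R 1 and 50.7% to 73.8% in the others. The summed level of the genes, unscaled and over the UMIs of the type, was 29100 ± 3120 CPM (SD, n = 3) in sham cardiomyocytes, 22200 ± 3350 in I/R and 23700 ± 725 in SBP. In myeloid cells it was 5070 ± 957, 1820 ± 384 and 1890 ± 283 CPM, in endothelial cells 6550 ± 1420, 2860 ± 555 and 2600 ± 414 CPM, and in fibroblasts 4540 ± 942, 1740 ± 385 and 1740 ± 311 CPM. T cells (8370 ± 1860 CPM in sham) and B cells (10500 ± 3880 CPM in sham) had means between these types and cardiomyocytes, but their values (6240 to 9730 CPM and 7760 to 15000 CPM) overlapped those of endothelial cells (5090 to 7930 CPM) in sham. The values of myeloid cells, endothelial cells and fibroblasts overlapped one another in sham. In I/R the endothelial values (2220 to 3240 CPM) lay above those of myeloid cells (1380 to 2110 CPM) and fibroblasts (1360 to 2130 CPM), and in SBP (2170 to 3000 CPM) above those of fibroblasts (1520 to 2100 CPM). In B cells the sham 1 library, with 40 nuclei, gave 15000 CPM and the other 2 sham libraries 7760 and 8870 CPM. Because cell types were named from these nuclei, the differences between types are a description and no test was made of them.

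The 10 genes differed widely in how far cardiomyocytes stood above the cell types that should not make sarcomeres. Myeloid cells served as the comparison, with levels per UMI of the type and not per nucleus. The summed level in cardiomyocytes was 4.91 to 7.06 times that in myeloid cells of the same sham mouse, 10.0 to 15.1 times in I/R and 11.2 to 14.6 times in SBP. Ttn had the highest median ratio in each group, with 11.4 for sham, 25.0 for I/R and 27.6 for SBP. That of Actn2 was 8.4, 17.5 and 20.4. Tnnt2, with a median of 9.77, was above Actn2 in sham. The ratio of Tnnt2 was 7.69 to 10.1 in sham mice, 12.7 to 17.1 in I/R mice and 13.8 to 15.1 in SBP mice, and that of Mybpc3 6.17 to 10.3, 9.71 to 15.9 and 10.2 to 19.5. Tnnc1 had median ratios of 3.88, 5.51 and 8.96, Tnni3 2.11, 3.6 and 3.68, Tpm1 1.81, 3.05 and 4.13, and Myl2 1.53, 2.95 and 2.75. For these genes cardiomyocytes were above myeloid cells in all 9 mice.

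Actc1, the main actin gene of adult heart muscle, did not stand clear of myeloid cells in CPM in sham mice. Its ratio of cardiomyocytes to myeloid cells was 0.917 to 1.2 in sham, 1.65 to 5.95 in I/R and 5.63 to 8.46 in SBP. Acta1, the skeletal actin gene, had ratios of 0.343 and 0.397 in the 2 sham mice where myeloid cells held a UMI, 1.23 to 2.06 in I/R and 2.64 to 4.97 in SBP. Over the 10 genes, longer genes had the higher ratios (Spearman rho 0.67 for sham, 0.71 for I/R and 0.56 for SBP). These 10 points share their libraries, so this is a description only.

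**Figure D1:**
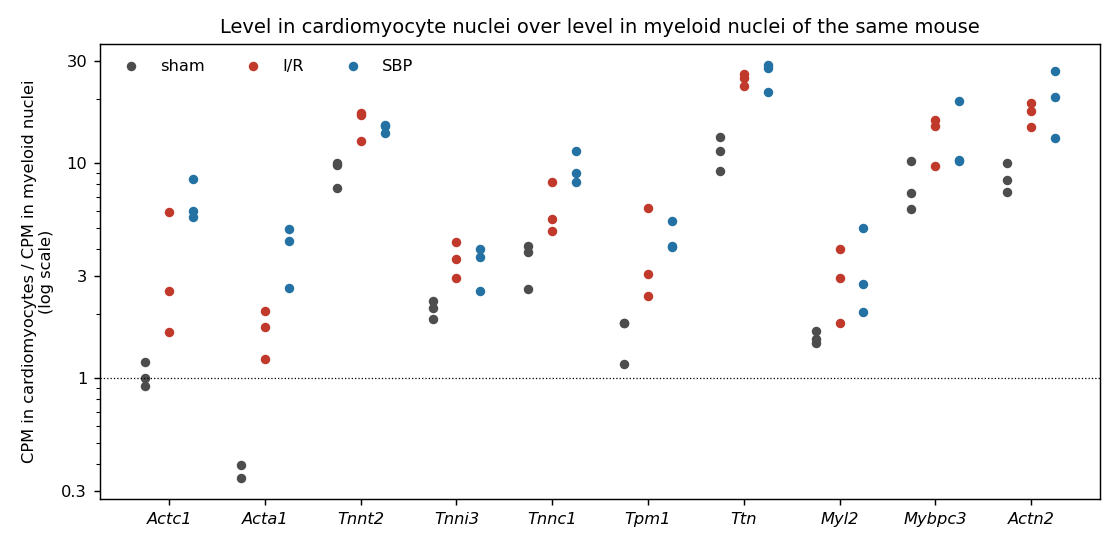
CPM in cardiomyocytes divided by CPM in myeloid cells of the same mouse, on a log axis, for each of the 10 genes, with 1 point per mouse and the groups in colour. The dotted line marks equal levels. Ttn reaches 28.7 at its highest, and the sham points of Actc1 lie between 0.917 and 1.2, next to the line.

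The share of nuclei with a UMI gave the same picture at equal depth. Nuclei were thinned to 1000 UMIs, and those with fewer were left out (4, 2 and 4 cardiomyocytes and 9, 134 and 59 myeloid nuclei in sham, I/R and SBP). Ttn was then found in 99.5% of sham cardiomyocytes and 77.7% of sham myeloid nuclei, and in 98.6% against 45.0% in I/R and 98.5% against 40.3% in SBP. Actc1 was found in 28.1% of sham cardiomyocytes and 27.0% of sham myeloid nuclei, in 16.0% against 7.92% in I/R and in 26.3% against 5.12% in SBP. Acta1 was found in 0.704% against 1.16% in sham, in 0.63% against 0.372% in I/R and in 1.37% against 0.58% in SBP. Myl2 was found in 79.4% against 65.2% in sham, 55.9% against 28.3% in I/R and 62.4% against 29.3% in SBP. For 9 of the 10 genes, all but Acta1, the thinned share was higher in cardiomyocytes than in myeloid cells in each group. Before thinning the shares in sham cardiomyocytes and sham myeloid nuclei were 64.2% and 36.7% for Actc1 and 2.44% and 1.75% for Acta1. The median nucleus held 4182 UMIs in sham cardiomyocytes and 1450 UMIs in sham myeloid cells. Equal levels per UMI are thus not equal levels per nucleus.

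The make-up of the UMIs in cardiomyocytes also differed from that in endothelial cells, fibroblasts and myeloid cells, as a description. UMIs were not divided by gene length, so the shares are compared for 1 gene between types and not between genes. In sham, Ttn gave 61.3% ± 4.45 (SD, n = 3) of the UMIs of the 10 genes in cardiomyocytes, and in endothelial cells, fibroblasts and myeloid cells 30.9% ± 2.09, 28.9% ± 2.52 and 31.9% ± 3.36. Myl2, the regulatory light chain, gave 6.06% ± 1.38 in cardiomyocytes and 21.9% to 23.7% in those 3 types. Actc1 gave 1.16% ± 0.448 in cardiomyocytes and 6.01% to 6.19% in the 3 types. T cells held 32.2% Ttn, 21.3% Myl2 and 5.5% Actc1, close to the values of those 3 types, and B cells 41.3%, 17.1% and 4.73%. In SBP, Ttn gave 56.8% ± 1.41 in cardiomyocytes and 27.4% to 28.0% in the 3 types, and Myl2 4.58% ± 1.61 and 18.1% to 18.9%. Whether free RNA gave the UMIs outside cardiomyocytes was not tested.

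**Figure D2:**
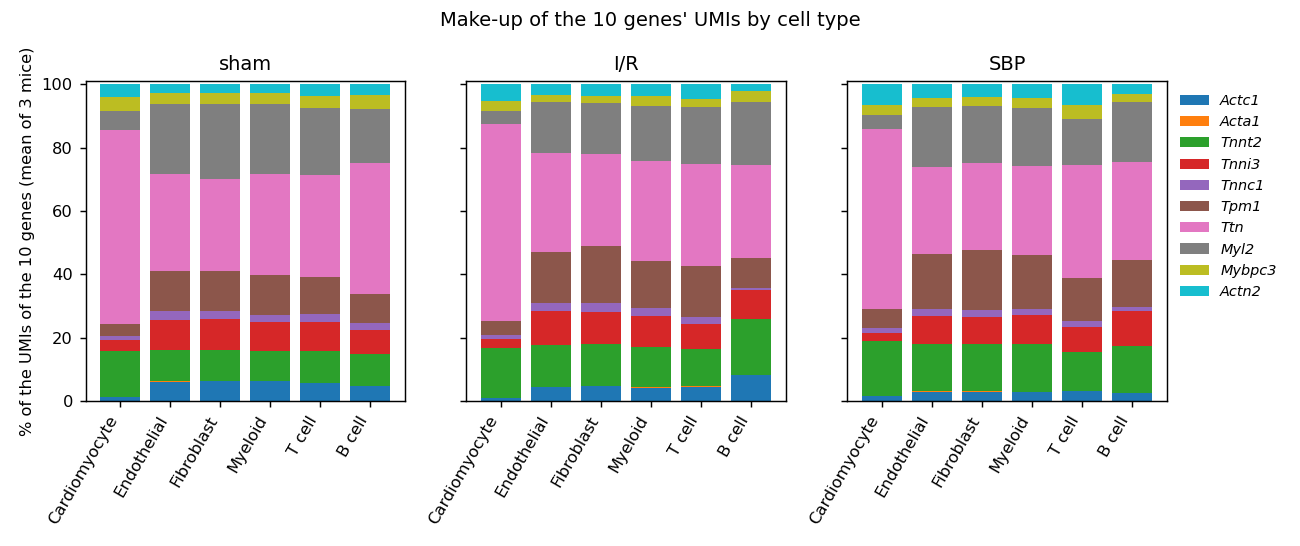
Share of the UMIs of the 10 genes given by each gene, in percent, as stacked bars for 6 cell types, with a panel per group and the mean of 3 mice in each bar. In sham, Ttn takes 61.3% in cardiomyocytes and 28.9% to 31.9% in endothelial cells, fibroblasts and myeloid cells.

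The study asked how I/R and the pill altered heart cells, which for these genes is first a comparison of cardiomyocytes between groups. Levels below are TMM-scaled CPM of UMIs summed per mouse, and differences are log2 fold changes on log2(CPM + 1). Of the 10 genes, 0 passed the test (limma, adjusted p of at most 0.05 and a log2 fold change over 0.25 in size) between I/R and sham, against 0.814% of the 12901 genes tested. Between SBP and I/R 0 of the 10 passed, against 0.0% of all genes, and between SBP and sham 0 of the 10 passed, against 0.132%. With an unadjusted limma p under 0.05, the numbers were 5 of 10 between I/R and sham (14.1% of all genes), 3 of 10 between SBP and I/R (2.17%) and 4 of 10 between SBP and sham (13.4%). With limma-voom on the UMIs 0 of the 10 passed in each comparison, and with only the 6 sham and SBP mice in the fit 2 passed between SBP and sham, Acta1 (adjusted p 0.012) and Tnni3 (−0.75, adjusted p 0.0413), among 387 genes called. Between I/R and sham the median log2 fold change of the 10 genes was −0.4, against −0.01 over all genes tested. Between SBP and I/R it was 0.36, against 0.0. All 3 I/R mice were below all 3 sham mice for 4 genes (Tnnt2, Tnni3, Tnnc1 and Myl2), which 7.74% of all genes showed. All 3 SBP mice were above all 3 I/R mice for 6 genes (Actc1, Acta1, Tnnt2, Tnnc1, Tpm1 and Actn2), which 2.64% of all genes showed. Against sham, the 3 SBP mice lay above all sham mice for 2 genes (Acta1 and Actn2), as did 11.6% of all genes, and below them for 3 (Tnni3, Myl2 and Mybpc3), as did 11.7%. These p-values measure the spread between the mice as processed, and SBP against I/R and I/R against sham share the I/R mice.

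Among the actins, Actc1 in cardiomyocytes was at 231, 450 and 301 CPM in sham 1 to 3, at 276, 108 and 152 CPM in I/R and at 293, 377 and 350 CPM in SBP. I/R 1 lay within the sham range, and the other 2 I/R mice were the lowest of the 9. The log2 fold change was −0.93 (SE 0.33, adjusted p 0.242) for I/R against sham, 1.03 (SE 0.33, p 0.00933, adjusted p 1) for SBP against I/R and 0.10 for SBP against sham. Acta1 was at 4.37, 4.98 and 7.74 CPM in sham, 6.15, 8.52 and 3.75 CPM in I/R and 20.6, 17.2 and 14.4 CPM in SBP. The 3 SBP mice were the highest, with no overlap with either group, and sham and I/R overlapped. Its log2 fold change was 1.41 (SE 0.29, p 0.000405, adjusted p 1) for SBP against I/R and 1.48 (SE 0.29, p 0.000276, adjusted p 0.0695) for SBP against sham. Against sham it passed the test when any I/R mouse was left out of the fit (adjusted p 0.0319 without I/R 1, 0.0493 without I/R 2 and 0.0371 without I/R 3), and its adjusted p ranged from 0.012 to 0.317 over all 26 alternatives. In myeloid cells Actc1 had the same order of mice in sham (251, 391 and 300 CPM) and in I/R (159, 19.7 and 59.4 CPM). The SBP mice were at 48.8, 61.9 and 41.5 CPM there. The part of RNA from outside the nuclei in the cardiomyocyte values of Actc1, and of the other genes below, was not tested.

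The Acta1 level in cardiomyocytes rested on few nuclei. SBP 1, 2 and 3 held 107, 118 and 76 Acta1 UMIs in 54, 35 and 36 nuclei, out of 940, 1095 and 994 cardiomyocytes. The sham libraries held 23, 35 and 78 UMIs in 15, 29 and 62 nuclei, out of 1327, 1423 and 1488 cardiomyocytes. In the I/R libraries 40, 44 and 31 UMIs lay in 27, 23 and 17 nuclei, out of 1079, 944 and 1244. Sham 3 thus had more nuclei with an Acta1 UMI than any SBP library, from more cardiomyocytes. A single nucleus of SBP 2 held 33 UMIs, and the 10 nuclei richest in Acta1 held 33.3% to 78.3% of the UMIs of a library. The CPM, which sums UMIs over nuclei, thus follows these nuclei. Outside the 10 richest nuclei, 5, 19 and 52 UMIs were left in sham, 17, 13 and 7 in I/R and 50, 32 and 35 in SBP.

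The troponin subunits make up the calcium switch of the thin filament. Tnnt2, which binds tropomyosin, was at 4530, 3780 and 4090 CPM in sham, 3540, 3540 and 3160 CPM in I/R and 5220, 3920 and 3720 CPM in SBP. Tnni3, the inhibitory subunit, was at 994, 1110 and 820 CPM in sham, 734, 453 and 661 CPM in I/R and 563, 596 and 563 CPM in SBP. Tnnc1, which binds calcium, was at 365, 345 and 437 CPM in sham, 345, 280 and 231 CPM in I/R and 366, 375 and 362 CPM in SBP. All 3 subunits were lower in every I/R mouse than in any sham mouse, for Tnnc1 between sham 2 and I/R 1 by less than the rounding of these values. In SBP, Tnnt2 and Tnnc1 overlapped the sham values, whereas Tnni3 was below all sham mice. For I/R against sham the log2 fold changes were −0.68 (SE 0.21, adjusted p 0.184) for Tnni3, −0.43 (SE 0.18, adjusted p 0.319) for Tnnc1 and −0.27 (SE 0.21, adjusted p 0.587) for Tnnt2. For SBP against I/R they were −0.07 (SE 0.21), 0.38 (SE 0.18) and 0.31 (SE 0.21), each with an adjusted p of 1. For SBP against sham Tnni3 was at −0.75 (SE 0.21, adjusted p 0.168).

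Tpm1 encodes the tropomyosin that covers actin. It was at 570, 1380 and 1130 CPM in sham, 972, 1190 and 697 CPM in I/R and 1610, 1320 and 1510 CPM in SBP. The sham mice spanned the I/R mice, and SBP lay above all I/R mice (log2 fold change 0.67, SE 0.31, p 0.0558, adjusted p 1). Titin, the elastic protein of the sarcomere, had a Ttn level of 21500, 16600 and 15000 CPM in sham, 17500, 12300 and 11700 CPM in I/R and 15300, 13200 and 13100 CPM in SBP. Sham 1 was the highest, and the groups overlapped, with log2 fold changes of −0.37 (SE 0.25, adjusted p 0.55) for I/R against sham and 0.02 (SE 0.25, adjusted p 1) for SBP against I/R.

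On the thick filament, Myl2 was at 1500, 2070 and 1580 CPM in sham, 1140, 715 and 741 CPM in I/R and 801, 1030 and 1480 CPM in SBP. Both injured groups lay below all sham mice, with SBP 3 next to sham 1. The log2 fold change was −1.01 (SE 0.27, p 0.00291, adjusted p 0.13) for I/R against sham, 0.34 (SE 0.27, adjusted p 1) for SBP against I/R and −0.67 (SE 0.27, adjusted p 0.314) for SBP against sham. Mybpc3, the gene of cardiac myosin-binding protein C, was at 1460, 1080 and 1180 CPM in sham, 1190, 523 and 457 CPM in I/R and 613, 870 and 862 CPM in SBP. I/R 1 again lay among the sham mice, and the other injured mice lay below them. The values were −0.90 (SE 0.32, adjusted p 0.25), 0.23 (SE 0.32, adjusted p 1) and −0.67 (SE 0.32, adjusted p 0.399) for the same comparisons. Actn2, alpha-actinin of the Z-disc, was at 1200, 1120 and 1250 CPM in sham, 1130, 1050 and 1320 CPM in I/R and 1590, 1430 and 1730 CPM in SBP. Here SBP stood above both other groups without overlap, with log2 fold changes of 0.44 (SE 0.18, p 0.0297, adjusted p 1) against I/R and 0.41 (SE 0.18, p 0.0437, adjusted p 0.355) against sham.

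One library decided the outcome for I/R against sham. Without I/R 1, 4 of the 10 genes passed in cardiomyocytes: Mybpc3 (log2 fold change −1.33, adjusted p 0.00835), Actc1 (−1.29, adjusted p 0.022), Myl2 (−1.22, adjusted p 0.0237) and Tnni3 (−0.82, adjusted p 0.0455), with 786 genes called in all. Without any other single library 0 of the 10 passed. I/R 1 was the highest of the 3 I/R mice for all 4 genes.

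**Figure D3:**
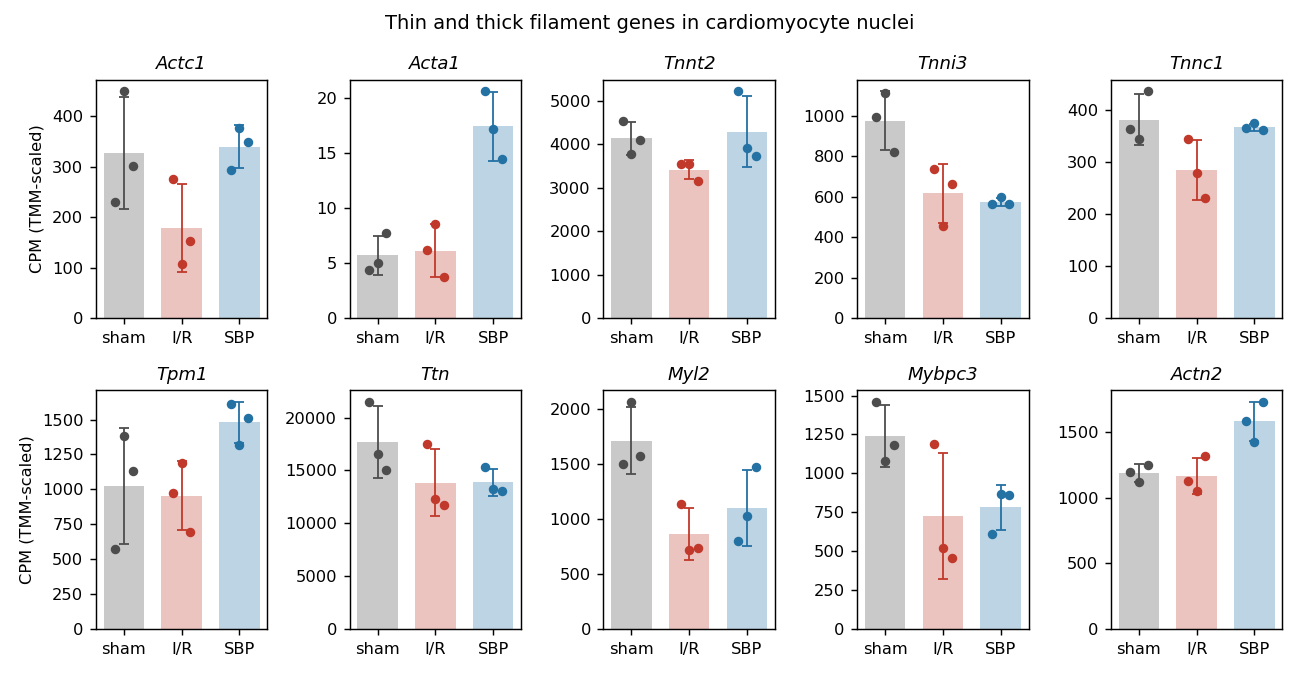
TMM-scaled CPM of the 10 genes in cardiomyocyte nuclei, with a panel per gene and its own axis from 0. Points are mice, bars the group mean and error bars the SD of 3 mice. The SBP mice stand alone at the top for Acta1 (14.4 to 20.6 CPM) and Actn2 (1430 to 1730 CPM), and all sham mice are at the top for Tnni3 (820 to 1110 CPM) and Myl2 (1500 to 2070 CPM).

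The sub-clusters of cardiomyocytes showed how the genes varied within the type. Because most sub-clusters were nearly those of 1 or 2 libraries, their levels cannot be told apart from those libraries. Sub-clusters 6 and 7, with 303 and 108 nuclei, drew from all 9 libraries, with 40.9% and 35.2% of nuclei from the 2 largest contributors. Sub-cluster 6, led by Mb and Nppa, had the highest summed level of the 8 (31900 CPM), with 3990 CPM for Myl2, 2930 for Tpm1, 2450 for Tnni3, 1140 for Actc1 and 67.2 for Acta1. In the other 7, Myl2 was at 691 to 2010 CPM, Tpm1 at 632 to 1790, Tnni3 at 452 to 1070, Actc1 at 140 to 412 and Acta1 at 1.85 to 18.6. Ttn did not share this pattern, with 12900 CPM in sub-cluster 6 and 12000 to 18100 CPM elsewhere. The lowest summed level (19500 CPM) was in sub-cluster 4, of which 97.5% of nuclei came from I/R 3 and which was led by Pdk4. Acta1 was second highest in sub-cluster 1 (18.6 CPM), led by Ankrd1 and drawn mainly from I/R 2 and SBP 1. Sub-clusters 1 and 6 together held 97.2%, 77.1% and 60.5% of the Acta1 UMIs of SBP 1, 2 and 3, in 93.0%, 16.3% and 13.6% of their cardiomyocytes.

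**Figure D4:**
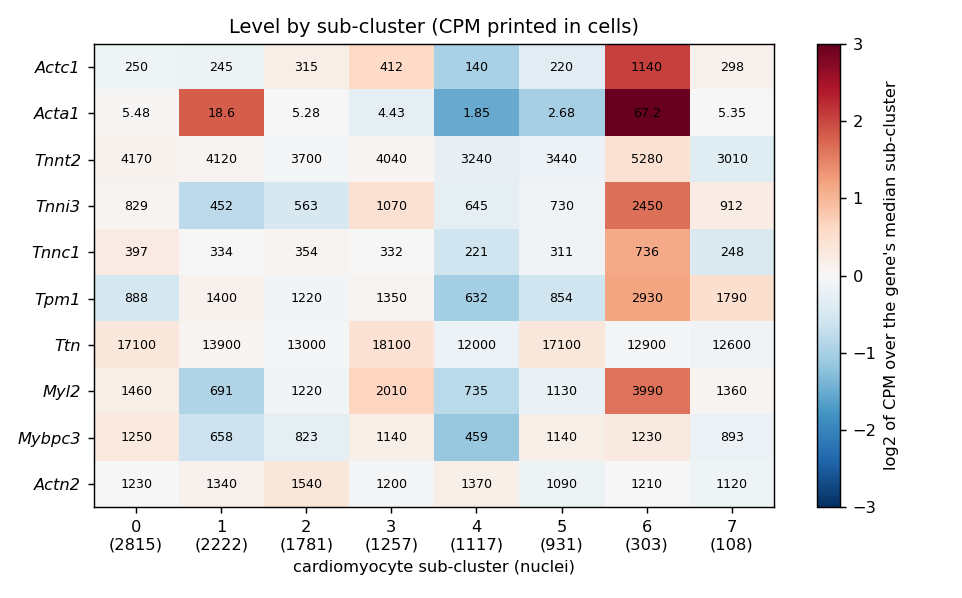
Level of the 10 genes in the 8 cardiomyocyte sub-clusters, as CPM printed in each cell, with the number of nuclei under each column. The colour gives the log2 of the level over the median of the sub-clusters. Sub-cluster 6 has the highest CPM of Myl2 (3990), Tnni3 (2450), Tpm1 (2930), Actc1 (1140) and Acta1 (67.2).

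In endothelial cells, fibroblasts and myeloid cells, the 3 other types tested, 5 to 9 of the genes were called lower in an injured group than in sham. The remaining types were not tested. In myeloid cells 9 of the 10 genes were tested and all 9 were called lower in I/R than in sham, against 8.46% of 10802 genes called lower, and all 9 in SBP than in sham, against 5.64%. Acta1 did not pass the filter on low values there. With a finer clustering, or with the 10 genes allowed to enter it, myeloid cells numbered 7561 and 7578 instead of 9327, and the counts were 4 and 4 for I/R and 4 and 3 for SBP against sham. The share of all genes called in either direction was then 5.51% and 5.7% for I/R and 4.57% and 4.9% for SBP, in place of 17.0% and 12.2%. Fibroblasts had 8 of 10 called lower in I/R than in sham (4.77% of 13059 genes) and 8 of 10 in SBP than in sham (2.31%). Endothelial cells had 6 of 10 called lower in I/R than in sham (1.03% of 12046 genes) and 5 of 10 in SBP than in sham (0.996%). These endothelial counts were 3 and 2 without trend and robust variances and 2 and 3 with the replicate block, and the count for SBP was 3 without the filter on low values. All genes called in either direction were then 1.69% and 0.689%, 2.2% and 0.897%, and 0.837%, in place of 2.71% and 1.54%. Between SBP and I/R, 0 of the genes were called in endothelial cells, fibroblasts and myeloid cells, as was true of all genes tested there (0.0%), and 0 had an unadjusted limma p under 0.05 in any of the 3 types (5.15%, 3.54% and 3.86% of all genes in endothelial cells, fibroblasts and myeloid cells). The median log2 fold change for I/R against sham was −1.45 in myeloid cells, −1.42 in fibroblasts and −1.09 in endothelial cells, and for SBP against sham −1.48, −1.52 and −1.43.

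Myl2 had 982, 1310 and 1090 CPM in sham myeloid cells, 367, 195 and 407 CPM in I/R and 369, 371 and 296 CPM in SBP. Every injured mouse was below every sham mouse. Its log2 fold change was −1.86 (SE 0.25, adjusted p 0.000631) for I/R and −1.70 (SE 0.25, adjusted p 0.00149) for SBP against sham. Ttn in the same cells had 1610, 1880 and 1330 CPM in sham, 668, 512 and 508 CPM in I/R and 674, 471 and 458 CPM in SBP, with log2 fold changes of −1.51 and −1.60 (adjusted p 0.000484 and 0.00046). Actc1 had 251, 391 and 300 CPM in sham, 159, 19.7 and 59.4 CPM in I/R and 48.8, 61.9 and 41.5 CPM in SBP. Its log2 fold changes of −2.40 and −2.60 (adjusted p 0.0284 and 0.0272) were the largest of the 9, and I/R 1 was again the I/R mouse nearest to sham. The other 6 genes (Tnnt2, Tnni3, Tnnc1, Tpm1, Mybpc3 and Actn2) fell by 0.69 to 1.67 on the log2 scale over both comparisons.

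In fibroblasts, Myl2 (−2.03 for I/R and −1.81 for SBP against sham), Mybpc3 (−2.01 and −1.81), Tnni3 (−1.45 and −1.62), Ttn (−1.45 and −1.49), Tnnc1 (−1.39 and −1.54), Actn2 (−1.17 and −0.93) and Tnnt2 (−0.99 and −0.80) were called in both comparisons. Tpm1 was called in I/R (−0.93, adjusted p 0.021), and in SBP its log2 fold change was −0.82 (adjusted p 0.0543). Actc1 was called in SBP (−2.51, adjusted p 0.0499), and in I/R it was at −2.19 (adjusted p 0.055). With the replicate block, Actc1 and Actn2 were not called in SBP against sham, and the count of 8 was 6 (5.92% of all genes called in either direction, in place of 6.01%). In endothelial cells Ttn (−1.14 and −1.46), Tnni3 (−1.04 and −1.41), Tnnc1 (−1.24 and −1.53), Myl2 (−1.64 and −1.50) and Mybpc3 (−1.69 and −1.51) were called in both comparisons, and Actn2 was called in I/R (−0.93, adjusted p 0.0262) and was at −0.70 in SBP (adjusted p 0.1). Tnnt2, Tpm1 and Actc1 were not called in endothelial cells, with log2 fold changes of −2.37 to −0.68. The groups did not overlap sham for these 3 genes, which 10.1% of all genes showed as lower in I/R and 11.8% as lower in SBP. Acta1 was called in neither type, with log2 fold changes of −0.91 to −0.22 and groups that overlapped.

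The 7 cardiomyocyte markers, which are not among the 10 genes, were read in the same cells. In cardiomyocytes themselves 1 of the 7 was called lower in I/R than in sham and 0 in SBP than in sham. Of all genes there, 0.814% and 0.132% were called in either direction. In myeloid cells 6 of the 7 were called lower in I/R than in sham and 6 in SBP than in sham (8.46% and 5.64% of all genes), in fibroblasts 5 and 5 (4.77% and 2.31%), and in endothelial cells 3 and 2 (1.03% and 0.996%). Their summed level in myeloid cells was 7400 to 8310 CPM in sham, 3410 to 5470 CPM in I/R and 3870 to 4370 CPM in SBP. In endothelial cells it was 6820 to 8230, 2930 to 4600 and 2470 to 3090 CPM, and in fibroblasts 5120 to 6660, 2960 to 4220 and 2950 to 3530 CPM. The share of cardiomyocytes among nuclei was also lower in every injured mouse than in any sham mouse (above). Markers of further types also differed there. In sham, I/R and SBP, B cell markers were at 776 to 924, 51.1 to 182 and 200 to 446 CPM in myeloid cells, 32.0 to 53.3, 3.04 to 24.6 and 12.9 to 18.8 CPM in endothelial cells and 23.8 to 35.9, 5.5 to 15.5 and 8.0 to 15.1 CPM in fibroblasts. Smooth muscle and pericyte markers were at 157 to 192, 79.3 to 107 and 80.6 to 116 CPM in myeloid cells and were lower in every injured mouse than in any sham mouse in endothelial cells and fibroblasts too. Fibroblast markers were higher in every injured mouse than in any sham mouse in myeloid cells (590 to 800 CPM in sham, 855 to 1280 in I/R and 947 to 976 in SBP) and endothelial cells (877 to 1080, 1230 to 1760 and 1190 to 1400 CPM). In sham, I/R and SBP, myeloid markers in endothelial cells were at 303 to 430, 570 to 936 and 373 to 476 CPM. In myeloid cells, Schwann markers were at 43.8 to 55.1, 26.6 to 41.3 and 29.8 to 32.9 CPM and endothelial markers at 366 to 469, 232 to 284 and 220 to 443 CPM. Genes of proliferation in fibroblasts were at 0.993 to 6.89, 73.1 to 186 and 58.5 to 134 CPM. The B cell list holds Bank1, which led a part of the macrophages. The part of RNA from other cells in the results was not tested.

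Single libraries moved some of these counts. In endothelial cells the count for I/R against sham was 1 without sham 2, 1 without sham 3 and 2 without I/R 2, with 0.583%, 0.997% and 0.797% of all genes called in either direction. For SBP against sham it was 2 without SBP 1, SBP 3, sham 2 or sham 3, with 0.391% to 0.481% of all genes. In fibroblasts the count for SBP against sham was 5 without SBP 2, SBP 3 or sham 2, with 2.8% to 5.52% of all genes called in place of 6.01%, and in myeloid cells it was 5 without SBP 3, with 6.33% in place of 12.2%. Fold changes stayed negative in all of these for the genes called.

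**Figure D5:**
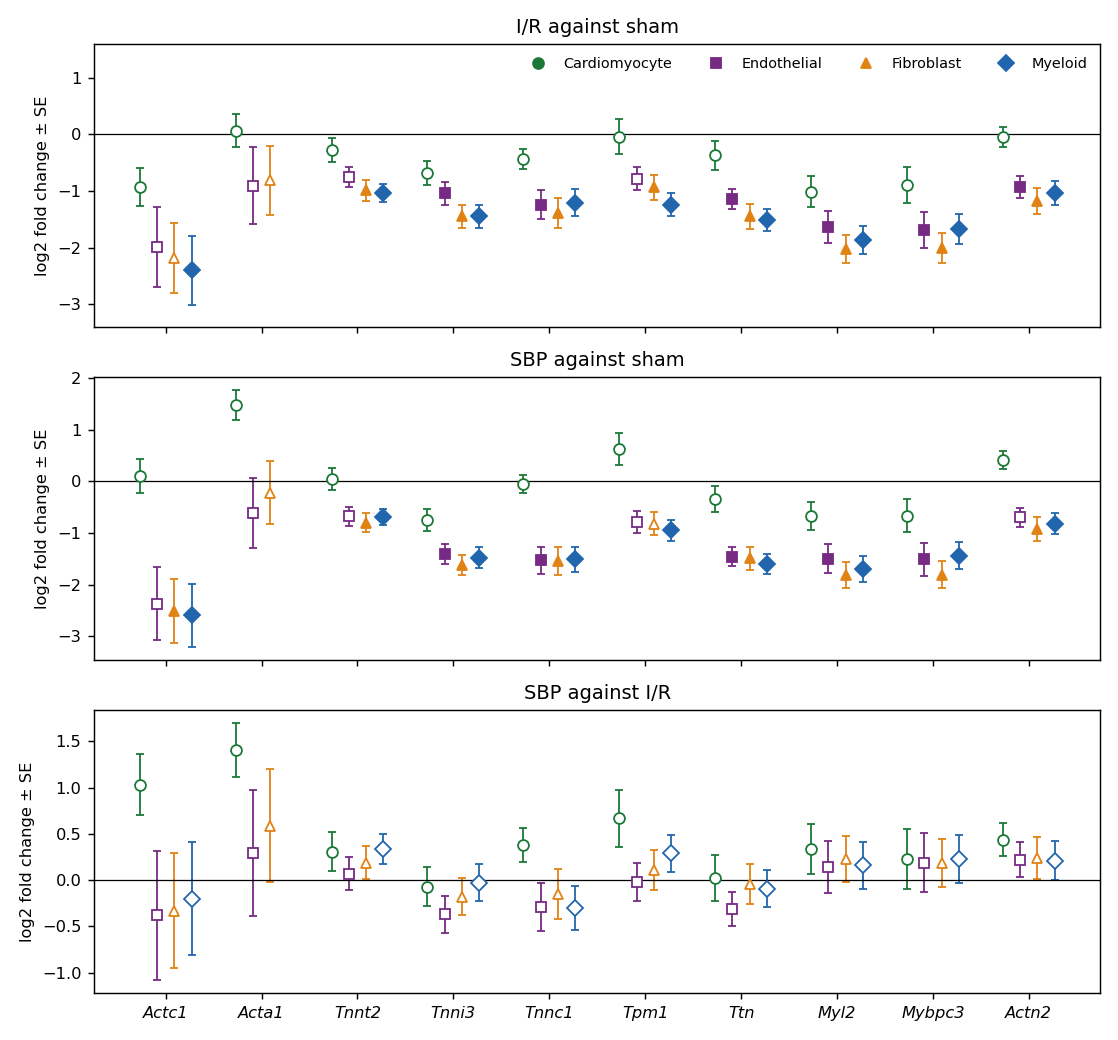
Log2 fold change with its SE for the 10 genes in cardiomyocytes, endothelial cells, fibroblasts and myeloid cells, with a panel for each comparison. Filled symbols passed the test. All filled symbols lie below 0, none is a cardiomyocyte value and none is in the panel of SBP against I/R.

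The other sarcomere genes were read from 5 lists. In cardiomyocytes 0 genes of any list were called for I/R against sham: 0 of 5 tested genes of the thick filament, 0 of 8 of the thin filament, 0 of 16 of the Z-disc, 0 of 11 of the M-band and titin partners, and 0 of 17 for assembly, splicing and transcription. Their median log2 fold changes were 0.03, 0.08, 0.10, 0.15 and −0.14, against −0.4 for the 10 genes and −0.01 over all genes. With an unadjusted limma p under 0.05 the numbers were 1, 4, 6, 2 and 3, against 14.1% of all genes. The comparisons of SBP with I/R and with sham also gave 0 called genes in each list, with 1, 0, 0, 0 and 0 genes and 1, 3, 6, 2 and 4 genes at an unadjusted limma p under 0.05, against 2.17% and 13.4% of all genes. Myh6 and Rbm20 are also among the cardiomyocyte markers used to name the cells.

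The 2 genes of each list with the largest log2 fold change in size between I/R and sham gave the following values. Myh6, the alpha myosin heavy chain, was at 10700, 9450 and 10500 CPM in sham, 8900, 1820 and 6690 CPM in I/R and 3170, 6100 and 6430 CPM in SBP (log2 fold change −1.10 for I/R against sham, adjusted p 0.368). Myl3, the essential light chain, had −0.64 (adjusted p 0.24). Lmod3, a leiomodin that nucleates actin filaments, was at 45.4, 45.5 and 39.5 CPM in sham, 26.9, 3.87 and 7.74 CPM in I/R and 12.7, 18.1 and 14.4 CPM in SBP (−2.07, adjusted p 0.0995). Both injured groups were below sham without overlap for Myh6 and Lmod3. Tpm2, another tropomyosin, had 1.06 (adjusted p 0.179), with all levels at or below 10.4 CPM. Of the Z-disc genes, Pdlim3 had 1.12 (adjusted p 0.369) and Palld, a palladin that binds actinin, −1.04 (adjusted p 0.201). Ankrd1, a stress-responsive partner of titin, was at 185, 133 and 214 CPM in sham, 480, 1940 and 639 CPM in I/R and 2030, 855 and 675 CPM in SBP (2.27, adjusted p 0.0936), higher in every injured mouse than in any sham mouse. Its relative Ankrd23 had 0.88 (adjusted p 0.409). Lrrc10, a cardiac leucine-rich repeat gene, had −0.96 (adjusted p 0.546) and Mef2c, a muscle transcription factor, −0.65 (adjusted p 0.31).

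Across the 9 cardiomyocyte samples the 10 genes did not vary as 1 block. Of the 45 pairs, 34 had a positive Pearson r on the log2(CPM + 1) scale, with a median of 0.36, from −0.62 for Acta1 with Tnni3 to 0.83 for Mybpc3 with Myl2. The genes most like Actc1 among all others tested were Timm17b (r 0.94), Blmh (0.92), Tafa2 (0.90), Atp8a1 (0.90) and Fbxl22 (0.89). Those most like Ttn were Ndrg4, Gm7694 and Tmem108 (0.96 each), and Ror1 and Fam160a1 (0.95 each). The highest r of 12901 genes over 9 samples is high whatever the gene, and the samples share their groups, so these are descriptions.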

How the data were processed

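Hearts of 9 mice were profiled by sNuc-seq, with 3 mice in each of the sham, I/R and SBP groups per the labels. As the study's methods state, reads were filtered by the authors with fastp, aligned with CellRanger to mm10 and down-sampled to a like depth. Nuclei with over 200 genes and under 10% mitochondrial UMIs were kept, mitochondrial genes were removed, and Seurat was used to normalize. The authors also applied fastMNN against batch effects among samples. Versions differ between the sources: the submitters' processing notes name Cell Ranger 4.0, STAR, Seurat 3.2.0 and GRCm38. The deposited tables hold, for each gene in each nucleus, the natural log of 1 plus the gene's UMIs scaled to 10000 per nucleus. The authors tested with DESeq2. The tables hold 49171 nuclei, all with over 200 genes (at least 405), which is fewer than the study's text states after quality control.

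UMIs were recovered by undoing the log, and at least 99.99936% of values were within 0.1 UMI of a whole number. Nuclei were clustered without the 10 genes (Scanpy 1.11.5, 2000 variable genes, 30 components, 20 neighbours, Leiden resolution 0.3), and clusters other than cardiomyocytes a second time (20 components, resolution 0.2). No correction for batch among libraries was made before this clustering. Names needed 3 markers in over 10% of nuclei. Parts led by another type's markers stayed unnamed, and these naming details were set after the clusters were seen. A doublet caller marked 126 nuclei (0.256%), below 0.5%, so the caller is held to have failed. The marked nuclei were left out of all sums. Depth was high in cardiomyocytes (median 4182 to 4712 UMIs per nucleus by group, against 1177 to 1989 in endothelial cells, fibroblasts and myeloid cells), and shares of nuclei were set at 1000 UMIs.

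UMIs were summed per mouse and type, TMM-scaled and tested as log2(CPM + 1) with limma 3.58.1 (trend, robust, all 9 samples, R 4.3.3), Benjamini-Hochberg over all genes of the type. A gene was tested if 3 samples reached the CPM that 10 UMIs give in the median library and all samples together held 15 UMIs. The pseudocount of 1 understates changes of low genes. The test was also run on simulated counts, drawn independently for each library with a single fixed spread. That setting differs from these libraries, so it does not show how the test performs on them. A gene was called at an adjusted p of at most 0.05 and a log2 fold change over 0.25 in size. All 10 genes are named in cardiomyocytes. In other types the genes called are named, with 5 genes most like Actc1 and Ttn, and the called genes or else the 2 largest changes of each list. The 10 genes, the lists and the markers were chosen with earlier results of these data known.

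Promoter sequences are from the RefSeq table for GRCm38.p6, and gene positions from GENCODE M21. Protein sequences were not used here.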

Additional observations from a re-analysis of the deposited data

Results flagged for a closer look

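The log2 fold change of Actn2 between SBP and sham had opposite signs in cardiomyocytes and in the other tested cell types. For SBP against sham its log2 fold change was 0.41 in cardiomyocytes, where all 3 SBP mice were above all 3 sham mice, against −0.70 (endothelial cells), −0.93 (fibroblasts) and −0.82 (myeloid cells), where all 3 SBP mice were below all 3 sham mice. It was called in fibroblasts and myeloid cells (limma adjusted p 0.0328 and 0.0277) and not called in cardiomyocytes (adjusted p 0.355) or endothelial cells (adjusted p 0.1). With the replicate block the call in fibroblasts was lost. The differences between types were 1.11, 1.34 and 1.22 on the log2 scale. The difference between types was not tested. For I/R against sham Actn2 was negative in all 4 types. Other genes also had a positive value in cardiomyocytes and negative ones elsewhere for SBP against sham, but with groups that overlapped in cardiomyocytes or in the other types: Tpm1 (0.62 against −0.79, −0.82 and −0.95), Actc1 (0.10 against −2.37, −2.51 and −2.60), Tnnt2 (0.04 against −0.68, −0.80 and −0.69) and Acta1 (1.48 against −0.62 in endothelial cells and −0.22 in fibroblasts).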

How the results depend on the processing

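In cardiomyocytes the count of genes called was 0 for SBP against I/R under every alternative run. For I/R against sham it ranged from 0 to 4 when single mice were left out, and for SBP against sham from 0 to 1 and was 2 with only the 6 samples compared. In endothelial cells the 6 calls of I/R against sham became 3 without trend and robust variances and 1 to 8 without single mice, and the 5 of SBP against sham became 2 without trend and robust variances, 3 without a filter on low values and 2 to 6 without single mice. In fibroblasts the 8 of SBP against sham became 5 to 9, and in myeloid cells the 9 became 5 to 9. In myeloid cells Leiden resolution 0.6 gave 4 and 4 calls, and letting the 10 genes enter the clustering 4 and 3. Under both settings a macrophage part led by Bank1, which is on the B cell marker list, stayed unnamed. This lowered the number of myeloid nuclei from 9327 to 7561 and 7578, and its share in the change of the counts was not tested. With a replicate block the endothelial counts were 2 and 3. Of 36 correlations between same-numbered mice, from −0.316 to 0.296, 12 exceeded 0.1. All 3 pairs did so only for sham with SBP in fibroblasts (0.126, 0.13 and 0.127), where the replicate block gave 6 calls in place of 8. Mice with unlike numbers reached 0.374 (I/R 1 with SBP 2 in fibroblasts), and the labels do not state that same-numbered mice were paired. The block moved no other count of the 10 genes by over 1.5 times. Counts over all genes tested moved too. In cardiomyocytes the 105 calls of I/R against sham were 44 with limma-voom and 18 to 786 over all alternatives, and the 17 of SBP against sham were 10 with the replicate block, 0 with limma-voom and 0 to 387. For the same comparisons the 326 and 186 calls in endothelial cells became 69 to 534 and 47 to 412, the 1502 and 785 in fibroblasts 832 to 1679 and 356 to 1110, and the 1833 and 1319 in myeloid cells 583 to 1861 and 484 to 1729.

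Alternatives for single genes were compared for the 30 fold changes in cardiomyocytes and for the 45 called in the other types. Among these, the changes of direction were in small fold changes in cardiomyocytes. For I/R against sham, Acta1 (0.07) was −0.02 with the highest doublet scores removed, −0.06 with limma-voom, −0.15 without cardiomyocyte sub-cluster 6 and −0.16 to 0.34 without single mice. Tpm1 (−0.04) was 0.02 without sub-cluster 6 and −0.42 to 0.22 without single mice, and Actn2 (−0.04) was 0.12 with types from marker scores and −0.12 to 0.04. For SBP against I/R, Ttn (0.02) was −0.03 with total UMIs and −0.08 to 0.21 without single mice, Mybpc3 (0.23) −0.03 to 0.66 and Tnni3 (−0.07) −0.27 to 0.07. For SBP against sham, Tnnt2 (0.04) was −0.02 with total UMIs and −0.11 to 0.15, Actc1 (0.10) −0.12 to 0.37, and Tnnc1 (−0.05) 0.01 with marker scores, 0.02 without sub-cluster 6 and −0.11 to 0.05. The cause was not tested. Leaving out sub-cluster 6, and counting unnamed parts with their type, were chosen after seeing the data. Of these fold changes under alternatives, 1744 kept direction and call, 128 lost the call and 9 gained it. With 3 mice a group, the smallest exact p is 0.1.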

Other observations

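Some nuclei outside the named cell types were rich in these genes. A part of 509 nuclei within an endothelial cluster, led by Mb, Ckm and Pgam2, had a summed level of 21600 CPM, with 4330 CPM for Ttn and 5280 CPM for Myl2. It made up 1.32%, 1.97% and 2.83% of the nuclei in sham, 0.422%, 0.367% and 0.812% in I/R and 0.356%, 0.758% and 0.469% in SBP, with every sham mouse above every injured mouse. A part of 76 nuclei within a myeloid cluster, led by Nppa and Cox6a2, had 22600 CPM, with 4280 CPM for Ttn and 5670 CPM for Myl2. It made up 0.154%, 0.356% and 0.436% of the nuclei in sham, 0.0468%, 0.0193% and 0.159% in I/R and 0.0396%, 0.0705% and 0.0978% in SBP. Here I/R 3 lay above sham 1. Both parts were left unnamed and outside the sums of the cell types. Actc1 was at 1450 and 1570 CPM in them.

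Myh7, the beta myosin heavy chain and the gene of the thick filament list that differed most between SBP and I/R in cardiomyocytes, was chosen after its values were seen. Its log2 fold change was 2.94 (SE 0.81, limma p 0.0045, adjusted p 1), and 3.39 (SE 0.81, adjusted p 0.124) for SBP against sham, without overlap of the groups in either comparison. The study's supplement lists Myh7 as raised with SBP in endothelial cells and in fibroblasts too. The rise is thus not particular to cardiomyocytes, and its values in other types are not given here.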
